A study of Mus musculus with 3 samples.

Results

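The 10 genes described here are the neuroendocrine granule and peptide genes *Calca*, *Calcb*, *Chga*, *Chgb*, *Scg2*, *Scg3*, *Scg5*, *Pcsk1*, *Pcsk2* and *Resp18*, chosen by their symbols, and each was found among the 33696 genes counted. They were followed in cells of the mouse larynx, the organ that holds the vocal folds. The 3 libraries formed 1 group, and each pooled 10 larynges (5 male and 5 female) of Lrig1CreERT2/+; ROSA26CAG-LSL-tdTomato/+ mice given tamoxifen on consecutive days, with tissue taken 24 h after recombination. Cre was driven from the *Lrig1* locus, the cells were sorted for the tdTomato reporter, and cells of wild-type and ROSA26CAG-LSL-tdTomato/+ mice served only to set the sorting gates. No library of unsorted cells, of untreated animals or of a second time point was compared, so every value describes the sorted fraction, and no age was given in the sources used here.

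Endocrine and neuroendocrine cells store peptides in dense-core granules. The granins *Chga* (chromogranin A), *Chgb* (chromogranin B) and *Scg2* (secretogranin II) are the main soluble proteins of these granules, *Scg3* (secretogranin III) ties granins to the granule membrane, and the prohormone convertases *Pcsk1* and *Pcsk2* cut peptide precursors, with *Scg5* acting as the chaperone of the *Pcsk2* precursor. *Calca* encodes calcitonin or, by alternative splicing, calcitonin gene-related peptide (CGRP), *Calcb* encodes the second form of CGRP, and *Resp18* is an endocrine-specific protein of the secretory pathway. The peptide genes *Calca* (chr7:114230712-114235592, minus strand) and *Calcb* (chr7:114317878-114322603, plus strand) are paralogues on the same chromosome (GRCm39). In the airway such cells are rare, scattered epithelial cells, and the thyroid next to the larynx holds C cells, which make calcitonin.

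Promoter sequence was available from RefSeq for 9 of the 10 genes, all but *Calcb*, as a fixed window around each start. The palindrome TGACGTCA, known as the cAMP response element, was searched on both strands, with its shorter form TGACG, which lies within it. The letters TGACGTCA stood in 3 of these 9 promoters (*Chgb*, *Pcsk1*, *Scg2*) and in 1.79% of all 32851 promoters of the same length, and TGACG stood in 8 of 9 against 20.8%. The 30 bases around the match are shown for 7 genes because the members that move together in the cells below can be compared there letter by letter, with the match in capitals (TGACG or its reverse complement CGTCA), read 5′ to 3′ on the gene's strand and placed on build GRCm39 by exact match.
*Scg2*, chr1:79417793-79417822, minus strand: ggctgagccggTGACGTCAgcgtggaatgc
*Chgb*, chr2:132623479-132623508, plus strand: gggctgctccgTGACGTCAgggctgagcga
*Pcsk1*, chr13:75237887-75237916, plus strand: ccaggtagatcTGACGTCAagagatggctt
*Chga*, chr12:102521145-102521174, plus strand: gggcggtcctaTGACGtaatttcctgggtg
*Calca*, chr7:114235639-114235668, minus strand: aagcacagaggTGACGcaatctgtctgggg
*Pcsk2*, chr2:143388008-143388037, plus strand: tggcgggcgcgCGTCAcccgggctggcgct
*Scg3*, chr9:75591350-75591379, minus strand: cgctgggtcgcTGACGccatcctcacgcct
All but the *Calca* window also overlapped an exon of a longer transcript of the same gene in GENCODE vM39. In *Scg2*, *Chgb* and *Pcsk1* the first base of TGACGTCA lay 68, 72 and 78 bases before the RefSeq start. The E-box CAGCTG stood in 5 of the 9 promoters (*Calca*, *Chga*, *Chgb*, *Pcsk2*, *Resp18*) against 16.3% of all promoters, and TATAAA in 1 (*Chga*) against 13.6%. These matches are a description of letters, and none of them shows binding.

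After quality limits and removal of called doublets, 13222, 7201 and 24119 cells were kept in libraries 1, 2 and 3, with median depths of 10504, 13953 and 10676 unique molecular identifiers (UMIs) per cell. Between 46 and 165 cell barcodes were shared by each pair of libraries and 0 by all of them. Of the 27 clusters, cluster 26 held 3583 of its 3586 cells in library 3 and other clusters were also mostly of 1 library, such as cluster 9 with 11, 368 and 13 cells in libraries 1, 2 and 3 and cluster 25 with 11 of 11 from library 1. Neither the reporter nor the recombinase was among the counted genes, so the sort could not be checked from the counts.

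The first question was how many cells carried the granule program and how many libraries contributed them. Cells with at least 5 UMIs over *Chga*, *Chgb*, *Scg2* and *Calca* are called granule-positive, and the comparison group is every other kept cell with at least 1 UMI of *Epcam*, an epithelial adhesion molecule. There were 53, 32 and 14 granule-positive cells in libraries 1, 2 and 3, 99 in all, against 7782, 5088 and 19641 other *Epcam*-positive cells. They made up 0.401% of kept cells in library 1 (95% Wilson interval 0.307 to 0.524), 0.444% in library 2 (0.315 to 0.627) and 0.0580% in library 3 (0.0346 to 0.0974), with a mean of 0.301% ± 0.212 (SD, n = 3). The intervals of libraries 1 and 2 overlapped, and that of library 3 lay below both. They cover counting error only.

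An *Epcam* UMI was present in 51 of 53, 30 of 32 and 14 of 14 granule-positive cells. The cells were deeper than the comparison group, with median depths of 25718, 25562.5 and 22862.5 UMIs against 13970.5, 17919 and 12524. Few cells lay near the threshold: 1 cell held 5 UMIs of the 4 genes and 1 held 6, just inside, while 2 held 4 and 5 held 3, just outside. A further 35 cells held 2 UMIs and 663 held 1. Among all deposited barcodes 73, 43 and 27 passed the same threshold, of which 12, 9 and 13 lay outside the quality limits, so that library 3 lost 13 of its 27 to the limits.

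When cells were clustered with the 10 genes left out, the granule-positive cells gathered. Cluster 17, called neuroendocrine-like because 5 of 8 markers were raised in it (*Insm1*, *Ddc* and *Snap25* among its leading genes), held 89 of the 99. Of the 90 cells with at least 5 UMIs over the 3 granins *Chga*, *Chgb* and *Scg2* alone, 87 were in this cluster. Granin-positive cells were 11.5% of its 755 cells, and the median depth of its cells was 0.203 of their library's median. At a finer resolution of 2, 86 of the 90 cells lay in a single cluster of 92 cells.

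The 4 genes that set the threshold are given as a description only. Levels are in CPM, the UMI count of a gene in the summed cells of a group scaled to the same total of UMIs in every sum. Because 3′ libraries are meant to give 1 tag a transcript, levels were not corrected for gene length. Whether length affects them was not tested. *Calca* stood at 11186 CPM in granule-positive cells of library 1, 6102 in library 2 and 927 in library 3. *Chga* stood at 2266, 2114 and 2627 CPM in the same order. *Scg2* stood at 3051, 3056 and 3726 CPM, and *Chgb* at 590, 521 and 392.5. The granins thus varied far less over libraries than *Calca*, whose level in library 3 was the lowest. In other *Epcam*-positive cells the mean level was 0.708 CPM ± 0.394 for *Calca*, 0.167 ± 0.0404 for *Chga*, 0.0991 ± 0.0231 for *Chgb* and 0.221 ± 0.0887 for *Scg2* (SD, n = 3 libraries).

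The other 6 genes took no part in choosing the cells, and 5 of them were far higher in granule-positive cells while *Calcb* was not called. *Resp18* stood at 407, 189 and 254 CPM in granule-positive cells against 0.0347, 0.0215 and 0.0633 in other *Epcam*-positive cells, a log2 fold change of 12.28 (SE 0.44, adjusted p = 3.81e-07). *Pcsk1* stood at 748, 607 and 658 CPM against 0.911, 0.0538 and 0.104 (log2 fold change 10.70, SE 0.90, adjusted p = 3.04e-05). *Pcsk2* stood at 482, 283 and 486 CPM against 0.208, 0.0431 and 0.410 (10.40, SE 0.56, adjusted p = 2.57e-06). In each of these genes the lowest granule-positive library lay above the highest library of the comparison group. How many of all genes tested part in this way was not counted, so this is a description.

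*Scg5* stood at 1070, 766 and 703 CPM in granule-positive cells against 2.31, 0.905 and 0.637 (log2 fold change 9.13, SE 0.57, adjusted p = 5.56e-06). *Scg3* stood at 285, 178 and 254 CPM against 0.234, 0.215 and 0.402 (9.35, SE 0.31, adjusted p = 2.65e-07). In both genes, too, the libraries of the groups did not overlap, again as a description. *Calcb* stood at 9.52, 9.52 and 3.02 CPM in granule-positive cells, from 11, 7 and 1 UMIs, against 1.61, 1.45 and 4.30. Its ranges overlapped, and it did not pass the test (log2 fold change 1.46, SE 0.62, adjusted p = 0.0975). Without library 3 it was called (2.34, adjusted p = 0.0118).

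These values are from edgeR's quasi-likelihood test on the 6 sums of 3 libraries with Benjamini-Hochberg adjustment over 17603 genes, of which 36.6% were called in either direction, 16.2% higher and 20.4% lower in granule-positive cells. *Pcsk1*, *Pcsk2* and *Resp18* passed the filter on low counts through the granule-positive sums, so a difference in them was built into the filter, and their number is not read as support; *Resp18* rested on 23 UMIs among the 32511 other cells. Each library pooled animals, so the p-values measure the spread between pools. Each SE given with an edgeR fold change is worked back from that fold change and the F statistic of its test.

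**Figure D1:**
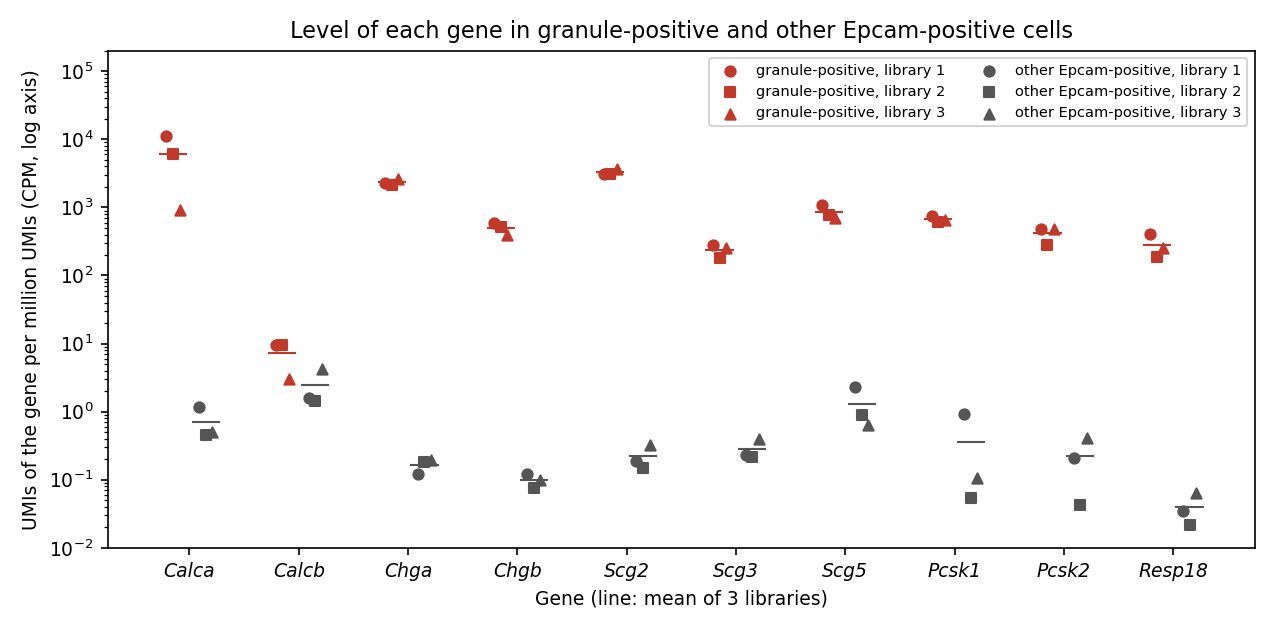
Level of each of the 10 genes in CPM on a log axis, in granule-positive cells and in other *Epcam*-positive cells, with 1 point per library and a line at the mean of the 3 libraries. *Calca* spreads from 927 to 11186 CPM over the granule-positive sums while *Chga* stays between 2114 and 2627, and *Calcb* is the gene whose groups overlap.

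The share of each gene's UMIs that came from the 99 cells was counted. For *Chga*, *Chgb*, *Scg2* and *Calca*, which chose the cells, it is largely fixed by the rule, since no other cell could hold 5 UMIs of them, and is a description. Granule-positive cells held 99.1%, 98.7% and 93.6% of all *Chga* UMIs in libraries 1, 2 and 3, 99.1%, 99.2% and 92.8% of those of *Scg2*, 96.6%, 95.5% and 79.8% of those of *Chgb* and 98.4%, 98.7% and 65.3% of those of *Calca*. Among the genes that the rule did not use, the mean share was 92.9% ± 9.13 for *Resp18*, 81.2% ± 17.7 for *Pcsk1*, 76.7% ± 24.1 for *Pcsk2*, 73.9% ± 16.2 for *Scg5* and 68.6% ± 27.0 for *Scg3* (SD, n = 3). *Scg3* had 84.4%, 84.0% and 37.3% in libraries 1, 2 and 3. *Calcb* stood lowest, with 3.49% ± 2.97 of its UMIs in granule-positive cells. Neighbours in this order from *Resp18* to *Scg3* did not differ beyond their spread.

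Single cells carried the members together. A UMI of *Chga* and a UMI of *Scg2* were found together in 52 of 53, 26 of 32 and 12 of 14 granule-positive cells, a mean of 88.4% ± 8.74, and in 2 of 32511 other *Epcam*-positive cells. With each cell thinned to 5000 UMIs the mean share was 86.3% ± 6.72. *Chga* and *Scg2* both helped to choose the cells, so these shares are largely fixed by the rule and are a description. *Pcsk2* and its chaperone *Scg5* were found together in 69 of 99 granule-positive cells, which is every cell with a *Pcsk2* UMI, and *Pcsk1* and *Pcsk2* in 67. *Resp18* was the least widely detected of the granule genes, with a UMI in 36 of 53, 17 of 32 and 4 of 14 cells.

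A granule-positive cell held UMIs of a median of 8 of the 10 genes in each library. All of *Chga*, *Chgb*, *Scg2*, *Scg3*, *Scg5* and *Pcsk1* were detected together in 77 of 99 granule-positive cells and in 0 of 32511 other *Epcam*-positive cells, which allows up to 3 in that number. Of those other cells, 95.6% had no UMI of any of the 10 genes. Because 4 of the genes set the threshold, their part in these counts is fixed by the rule.

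Some UMIs of the granule genes lay outside the granule-positive cells. A *Calca* UMI was found in 1.02% ± 0.518 of other *Epcam*-positive cells and in 0.926% ± 1.60 of macrophage-like cells (median depths 13712 and 9086 UMIs). These macrophage-like cells leave out by rule 3 cells of library 2 that were granule-positive by *Calca*, and the 5 that held a *Calca* UMI were all of library 1. *Chga* was found in 0.255% of other *Epcam*-positive cells and in 0 of 279 macrophage-like cells, which allows up to 3 cells. Within a library, *Calca* UMIs per *Chga* UMI were 4.94, 2.89 and 0.353 inside granule-positive cells and 9.22, 2.85 and 2.76 in all other kept cells of libraries 1, 2 and 3. Cluster 26, nearly all from library 3, was 8.07% of the cells outside and held 3.44% of their UMIs, yet 38.2% of the outside *Chga* UMIs, 51.0% of those of *Scg2* and 54.8% of those of *Resp18*, the last from 31 UMIs in all libraries. The source of these UMIs was not tested.

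The second question was whether granule-positive cells part by peptide. Of the 90 cells with at least 5 granin UMIs, 73 held at least 5 *Calca* UMIs and are called *Calca*-high. Another 17 held 0 or 1 and are called *Calca*-low, and none held between 2 and 4. This gap is in raw UMIs of cells of unequal depth. In library 1, 1 *Calca*-low cell held 1 *Calca* UMI of 9179, and 1 *Calca*-high cell held 8 of 33444. Of the *Calca*-low cells 15 had 0 *Calca* UMIs and 2 had 1. The *Calca*-high cells ranged from 5 to 1248 *Calca* UMIs with a median of 135, and 6 of them held fewer than 10.

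**Figure D2:**
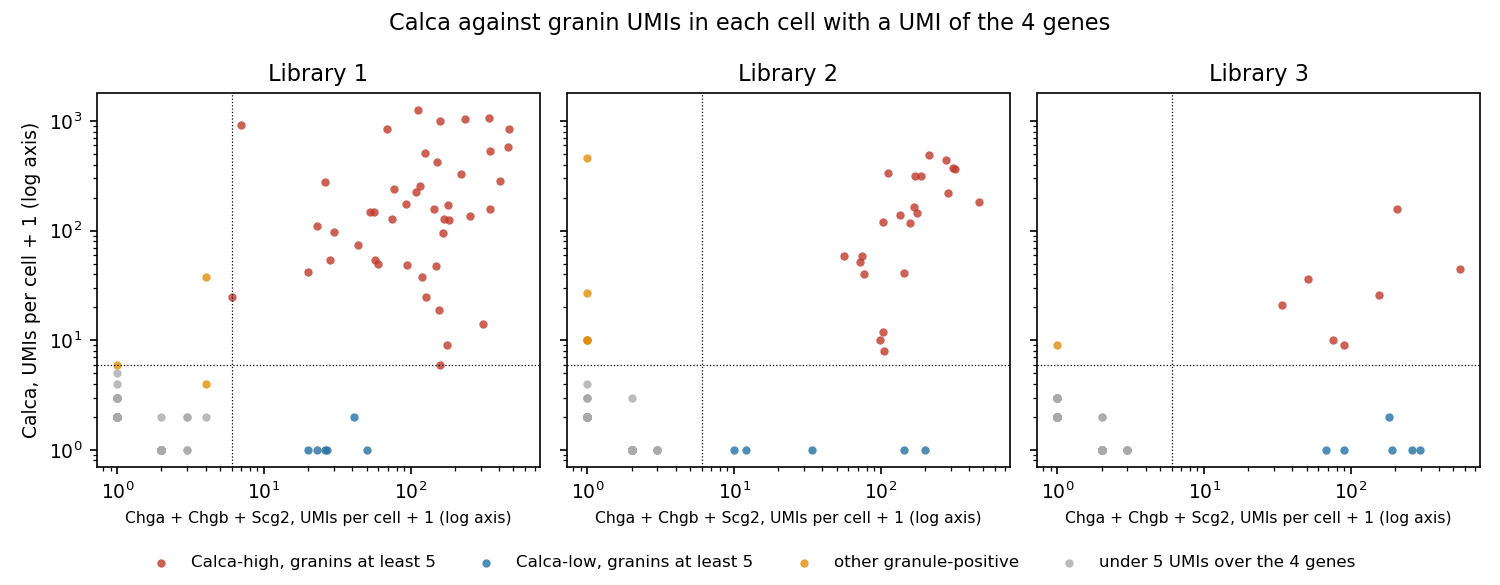
*Calca* UMIs against the sum of *Chga*, *Chgb* and *Scg2* UMIs in single cells, 1 panel per library, on log axes of UMIs + 1, with dotted lines at the threshold of 5 UMIs. The 73 *Calca*-high cells lie upper right and the 17 *Calca*-low cells along the bottom, where they are 6 of 50 granin-positive cells in library 1 and 6 of 13 in library 3.

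The makeup of the granin-positive cells was counted in each library. *Calca*-high cells were 44 of 50 granin-positive cells in library 1 (88.0%, 95% Wilson interval 76.2 to 94.4), 22 of 27 in library 2 (81.5%, 63.3 to 91.8) and 7 of 13 in library 3 (53.8%, 29.1 to 76.8), a mean of 74.4% ± 18.1 (SD, n = 3). The intervals of every pair of libraries overlapped. Over all granule-positive cells, the share with at least 5 *Calca* UMIs was 86.8%, 84.4% and 57.1%. It was 82.6%, 82.8% and 30.8% when cells were thinned to 5000 UMIs, and 84.3%, 78.6% and 38.5% at thresholds of 10 UMIs. *Calca*-high cells also held less *Calca* each in library 3, at 2001 CPM against 11955 in library 1 and 7433 in library 2, while *Chga* in the same cells stood at 2834, 2334 and 2546 CPM. No test between libraries was possible, since the libraries are replicates of 1 group.

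The 8 cells with at least 5 *Calca* UMIs and fewer than 5 granin UMIs were mixed. In library 1 there were 2, of which 1 carried 625 UMIs of *Tg*, thyroglobulin, made by thyroid follicular cells. In library 2, 3 of 5 lay in the macrophage-like cluster with 4 to 14 UMIs of *Ptprc*, the leukocyte antigen CD45, and 1, in cluster 17, held 457 *Calca* UMIs with 0 granin UMIs and also 4 of *Ptprc*. These cells are in the granule-positive sums above, and the sums without them (at least 5 UMIs over the granins alone) gave 6861 called genes against 6442 with the same calls for the 6 genes.

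Granins, convertases and their helpers were present in both types. *Chga* averaged 2572 CPM ± 251 in *Calca*-high and 2445 ± 753 in *Calca*-low cells, and *Chgb* 551 ± 82.9 and 557 ± 176. *Scg2* averaged 3881 ± 631 and 2070 ± 1201, and *Scg5* 994 ± 110 and 536 ± 146 (SD, n = 3). *Pcsk1* stood at 782, 669 and 725 CPM in *Calca*-high cells against 633, 733 and 661 in *Calca*-low cells of libraries 1, 2 and 3. All 73 *Calca*-high cells had a *Chga* UMI, and the 17 *Calca*-low cells held UMIs of a median of 7 of the 10 genes against 9. *Calca*, which splits the types, is among the 10 genes, and *Chga* is among the granins that chose the cells. Both counts are thus partly fixed by the rule. Depth differed too: in library 1 the 6 *Calca*-low cells had a median of 4176.5 UMIs against 28530, where 1 UMI in their sum of 33200 is 30.1 CPM, while in libraries 2 and 3 the *Calca*-low medians were the higher ones, at 31082 against 25944.5 and 32215 against 19426.

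*Pcsk2* and *Resp18* varied between libraries in the *Calca*-low cells. *Pcsk2* stood at 0, 83.2 and 571 CPM in *Calca*-low cells against 503, 370 and 443 in *Calca*-high cells. None of the 6 *Calca*-low cells of library 1 had a *Pcsk2* UMI, 2 of 5 of library 2 did and all 6 of library 3 did, the last with 5 to 44 UMIs each. *Resp18* was highest in library 1, at 1747, 291 and 307 CPM in *Calca*-low cells, with a UMI in 6 of 6, 2 of 5 and 3 of 6 cells of libraries 1, 2 and 3, against 382, 194 and 222 in *Calca*-high cells. *Calcb* had 0 UMIs in all *Calca*-low cells and was detected in 14 of 73 *Calca*-high cells, 1 to 3 UMIs each. Its 0 of 319640 UMIs allows up to 3.

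No library had 10 cells in both types, so the comparison set out for them was not made; a fit without that minimum was added after the data were seen. In it 0.484% of 3927 genes were called, 10 higher (0.255%) and 9 lower (0.229%) in *Calca*-high cells, and none of the members tested was among them. By edgeR's quasi-likelihood test with Benjamini-Hochberg adjustment the log2 fold change was -1.17 for *Resp18* (SE 0.52, adjusted p = 0.539), 0.84 for *Scg5* (SE 0.24, adjusted p = 0.199), 0.66 for *Pcsk2* (SE 0.51, adjusted p = 0.829), 0.49 for *Scg3* (adjusted p = 0.681) and 0.10 for *Pcsk1* (adjusted p = 0.965). Without library 3 *Pcsk2* was called (2.80, edgeR adjusted p = 0.0119), beside 0.787% of 6734 genes. It passed the filter on low counts there through the *Calca*-high sums, so a difference was built into the filter. With no filter *Resp18* (-0.99, edgeR adjusted p = 0.0309) and *Scg5* (0.95, adjusted p = 0.0272) were called, beside 1.27% of 17210 genes. The p-values of that unfiltered fit do not measure the spread of a single gene between libraries. *Calcb* did not pass the filter.

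Genes with the largest changes each way in that fit are named. *Adgrb3*, an adhesion receptor, stood at 94.7, 116 and 181 CPM in *Calca*-high cells against 0, 0 and 6.01 (log2 fold change 5.07). Higher with it were *Mpped2* (4.54), the netrin receptor *Unc5c* (3.95), the potassium channel partners *Kcnip4* (3.74) and *Dpp6* (1.97), the neural catenin *Ctnna2* (3.09) and *Enho* (2.55). Lower in *Calca*-high cells were the splicing regulator *Rbfox1* (-3.90), the formin *Fmnl2* (-2.57), *Focad* (-1.96), *Ifitm3* (-1.85), *Cped1* (-1.83), the helix-loop-helix inhibitor *Id4* (-1.78), *Dach1* (-1.56) and *Sidt1* (-1.34). *Fmnl2* stood at 42.7, 18.7 and 13.4 CPM in *Calca*-high cells against 271, 183 and 174. Each of the higher genes named passed the filter on low counts through the *Calca*-high sums, and *Rbfox1*, *Fmnl2*, *Focad* and *Ifitm3* passed through the *Calca*-low sums, so a difference in them was built into the filter and these values are a description. Leaving out library 1, 2 or 3 gave 8, 21 and 53 called genes, keeping called doublets gave 4, and taking all granule-positive cells gave 3, so the list is small and moves with the cells taken.

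*Nkx2-1*, a transcription factor of lung and thyroid, was detected in most *Calca*-high and few *Calca*-low cells. It had a UMI in 36 of 44, 21 of 22 and 6 of 7 *Calca*-high cells and in 0 of 6, 0 of 5 and 2 of 6 *Calca*-low cells. Its level was 167, 150 and 188 CPM against 0, 0 and 84.2, a log2 fold change of 1.96 that did not pass the test (edgeR, adjusted p = 0.154). The *Nkx2-1* share of other *Epcam*-positive cells was 41.9% ± 2.66, between the types.

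*Iapp*, the islet amyloid polypeptide of the calcitonin peptide family, was high in some of the *Calca*-low cells. It was singled out after its values were seen, from a list of 24 other peptide genes. At least 5 *Iapp* UMIs were found in 9 of 17 *Calca*-low cells (3 of 6, 2 of 5 and 4 of 6 in libraries 1, 2 and 3) and in 4 of 73 *Calca*-high cells (3, 0 and 1). Outside the granule-positive cells 4 of 44443 cells reached that count. *Nkx2-1* had a UMI in 1 of the 13 granin-positive cells with at least 5 *Iapp* UMIs and in 64 of the other 77.

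The *Iapp* level was 516, 5.61 and 60.4 CPM in *Calca*-high cells against 633, 1440 and 3854 in *Calca*-low cells (log2 fold change -3.23, edgeR adjusted p = 0.127, not called). The 516 CPM of library 1 came mostly from 3 cells with 79, 184 and 287 *Iapp* UMIs, which held 135, 13 and 8 *Calca* UMIs and 0 of *Nkx2-1*. The *Calca*-low values of libraries 2 and 3 rested on few cells too, 1 cell with 161 of 173 *Iapp* UMIs in library 2 and 2 cells with 309 and 312 of 641 in library 3, so they are not levels of the group. Over all granule-positive cells *Iapp* stood at 499, 239 and 1962 CPM, most of it from these same cells. Not all *Calca*-low cells carried it: 4 of 17 had 0 *Iapp* UMIs, among them the 1 cell in the fibroblast-like cluster, which held 9 *Scg2* UMIs and 9 of *Tg* and no *Epcam*.

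**Figure D3:**
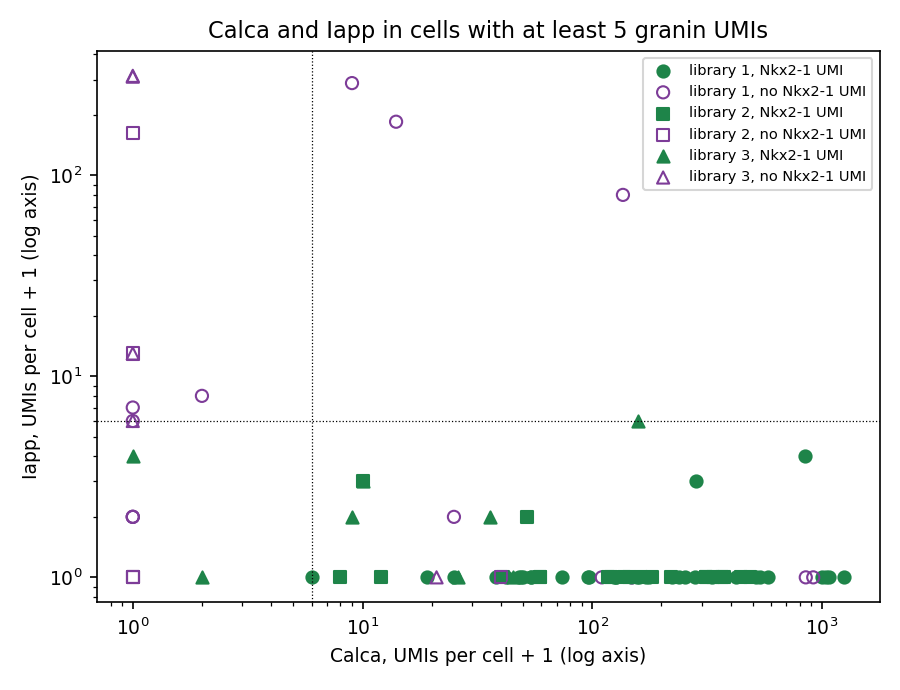
*Calca* against *Iapp* UMIs in the 90 granin-positive cells on log axes of UMIs + 1, with a marker shape per library and filled points for cells with an *Nkx2-1* UMI. Filled points run along the *Calca* axis, and 12 of the 13 cells with at least 5 *Iapp* UMIs are open.

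Other genes of the secretory pathway and of neuroendocrine identity rose with the members in granule-positive cells. Of 32 genes of the granule machinery, 29 were tested, and 27 were higher and 0 lower, with a median log2 fold change of 6.42 against -0.15 over all genes tested. They included the fusion proteins *Snap25* (10.90) and *Syt1* (8.63), the complexin *Cplx2* (7.15) and the granule membrane protein *Ptprn* (7.57). *Pam*, which amidates peptides such as CGRP, stood at 1071, 608 and 607 CPM against 496, 388 and 404 (0.57, edgeR adjusted p = 0.0956) and *Cpe*, the carboxypeptidase that trims them, at 69.2, 74.8 and 60.4 against 39.4, 32.4 and 56.4 (0.43, adjusted p = 0.165), and neither was called. Genes near 0 in the comparison group, such as *Syt4* and *Rab3c*, passed the filter through the granule-positive sums, so these counts are a description.

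Of 14 neuroendocrine transcription factors 11 were tested, and 9 were higher, among them *Insm1* at 356, 337 and 389 CPM against 0.252, 0.108 and 0.279 (log2 fold change 10.35). *Nkx2-1* was higher by 0.69 (edgeR adjusted p = 0.0225), and *Foxa1* (0.25) and *Sox2* (-0.13) were not called. Of the 5 genes with the largest rise, which by rule left out genes of low level, *Resp18* was the second, after the sodium channel *Scn9a* (12.32) and before *Tcerg1l* (12.07), the receptor partner *Neto1* (11.89) and *Gm50304* (11.65). *Insm1* and these 5 genes passed the filter on low counts through the granule-positive sums, so a difference was built into the filter, and the counts of this list and of the granule machinery are given as a description. The largest falls were in the mucins *Muc4* (-7.14) and *Muc5b* (-6.71), *Agr2* (-6.55), *Tff2* (-6.41) and *Rp1* (-5.96). These 5 were at 0 in the granule-positive sum of library 3 and passed the filter through the other *Epcam*-positive sums, and all but *Tff2* stood at 1.36 CPM or less in each granule-positive sum, so the sizes are set by the fit.

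Marker lists of other cell types are given as a description beside the 16.2% of all genes called higher and 20.4% called lower, since genes near 0 in one group passed the filter through the other. Of airway neuroendocrine markers 6 of 7 tested were higher, with *Grp* not called and at 9.52, 0 and 0 CPM. *Ddc*, *Uchl1* and *Kcnk3* among them passed the filter through the granule-positive sums. Of 4 tested thyroid C cell markers *Ret* (log2 fold change 6.97) and *Casr* (6.28) were higher, the latter passing the filter through the granule-positive sums and at 0 in the 7 *Calca*-high cells of library 3. *Gfra4* (-1.19, edgeR adjusted p = 0.321) and *Cckbr* (0.61, adjusted p = 0.704) were not called. The summed level of the 7 listed genes was 109 to 139 CPM in granule-positive against 2.75 to 3.76 in other *Epcam*-positive cells, while *Sst* and *Trh* were at 0 in granule-positive cells. *Ret* is also expressed in other neuroendocrine and neural cells. The same sum was 134 to 138 CPM in *Calca*-high and 91.6 to 181 in *Calca*-low cells, and that of the airway neuroendocrine markers 4405 to 4594 and 2922 to 4154, so neither list was confined to a type. All 5 tested genes of taste type III cells, 3 of which are shared with the airway or granule lists, and all 3 tested of 13 neuron and paraganglion genes were higher, the latter *Elavl4*, *Tubb3* and *Stmn2*. All of these but *Ncam1* passed the filter through the granule-positive sums. *Th* and *Dbh*, which make catecholamines in paraganglia, were at 0, as were *Pth* and *Gcm2* of the parathyroid. The 12 thyroid follicular genes summed to 24.2 to 651 CPM over libraries, highest in library 1, where 1 cell held 625 *Tg* UMIs, against 111 to 328 in other *Epcam*-positive cells, and to 9.35 to 20.1 in *Calca*-high cells. Among them *Duox2* (3.26) was called higher and *Foxe1* (-2.60) lower. All 5 basal, all 5 gland acinar and 6 of 7 secretory markers were lower, as were 4 of 5 ciliated, 4 of 5 cycling, 3 of 6 suprabasal squamous, 3 of 4 tested muscle satellite, 3 of 5 pericyte or smooth muscle and 1 of 4 tested tuft cell markers. The secretory marker *Aldh1a7* was higher, at 174, 222 and 115 CPM against 28.6, 20.4 and 25.8 (2.55), as was the squamous marker *Sbsn* (0.81). No glial, fibroblast, endothelial, macrophage, T cell or neutrophil marker tested was called. How far C cells, as against airway cells, make up the *Calca*-high group was not tested.

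Of the 24 other peptide genes 8 were tested, with 2 higher and 3 lower, beside 16.2% and 20.4% of all genes. The higher ones were *Iapp* (log2 fold change 10.66, a description, since it passed the filter through the granule-positive sums) and *Pomc* (2.99). *Pomc* stood at 2.60, 4.08 and 3.02 CPM, from only 3, 3 and 1 UMIs, against 0.364, 0.398 and 0.242 in other *Epcam*-positive cells. *Pthlh* (-4.31), *Adm* (-1.85) and *Penk* (-12.40, at 0 in every granule-positive sum, so that the value is set by the fit) were lower. Of the 5 receptor genes for peptides of the calcitonin family, 1 was called: *Calcrl*, the CGRP receptor subunit, was lower in granule-positive cells by 2.25 on the log2 scale. With 20.4% of all genes called lower, that count is not read as a result about the receptors.

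The third question was where the members were found outside the granule-positive cells, and 4 of them are described. *Calcb* lay mostly in epithelial clusters: 49.1% of its UMIs outside lay in cycling-like cluster 5, where it stood at 4.98, 3.34 and 13.1 CPM in libraries 1, 2 and 3. Its mean level over libraries was highest in basal-like cluster 20, led by the injury-response genes *Fosl1*, *Hbegf* and *Atf3*, at 9.25, 3.05 and 15.2 CPM. In library 2 that cluster lay below cluster 5 and below basal-like cluster 0, the latter at 8.60 CPM with all its *Calcb* UMIs in 1 cell. Library 3 held 1178 of the 1521 *Calcb* UMIs. At most 5.67% of the cells of cluster 20 in a library had a *Calcb* UMI, and single *Epcam*-positive cells reached 77 UMIs, so the gene was high in few cells.

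*Pcsk1* outside granule-positive cells came mostly from endothelial-like cells of library 1: 87.2% of its UMIs lay in cluster 22, at 102 CPM in library 1, 0 in library 2 and 21.4 in library 3, where the cluster held 536, 34 and 50 cells. *Scg5* lay mostly in cluster 7, with 61.6% of its outside UMIs and 117, 90.0 and 98.9 CPM. That cluster is left unnamed because both pericyte and thyroid follicular genes (*Tg*, *Myh11*, *Rgs5*) lead it. *Pcsk2* was found in fibroblast-like cluster 11 at 4.78, 2.61 and 4.93 CPM, with 38.2% of its outside UMIs, and in cluster 26 at 4.46 CPM in library 3, with 32.2% of them. *Scg3* stood at 2.76, 2.09 and 3.76 CPM in cluster 11. Cluster 26 also held 11.1% of the outside *Scg5* UMIs.

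**Figure D4:**
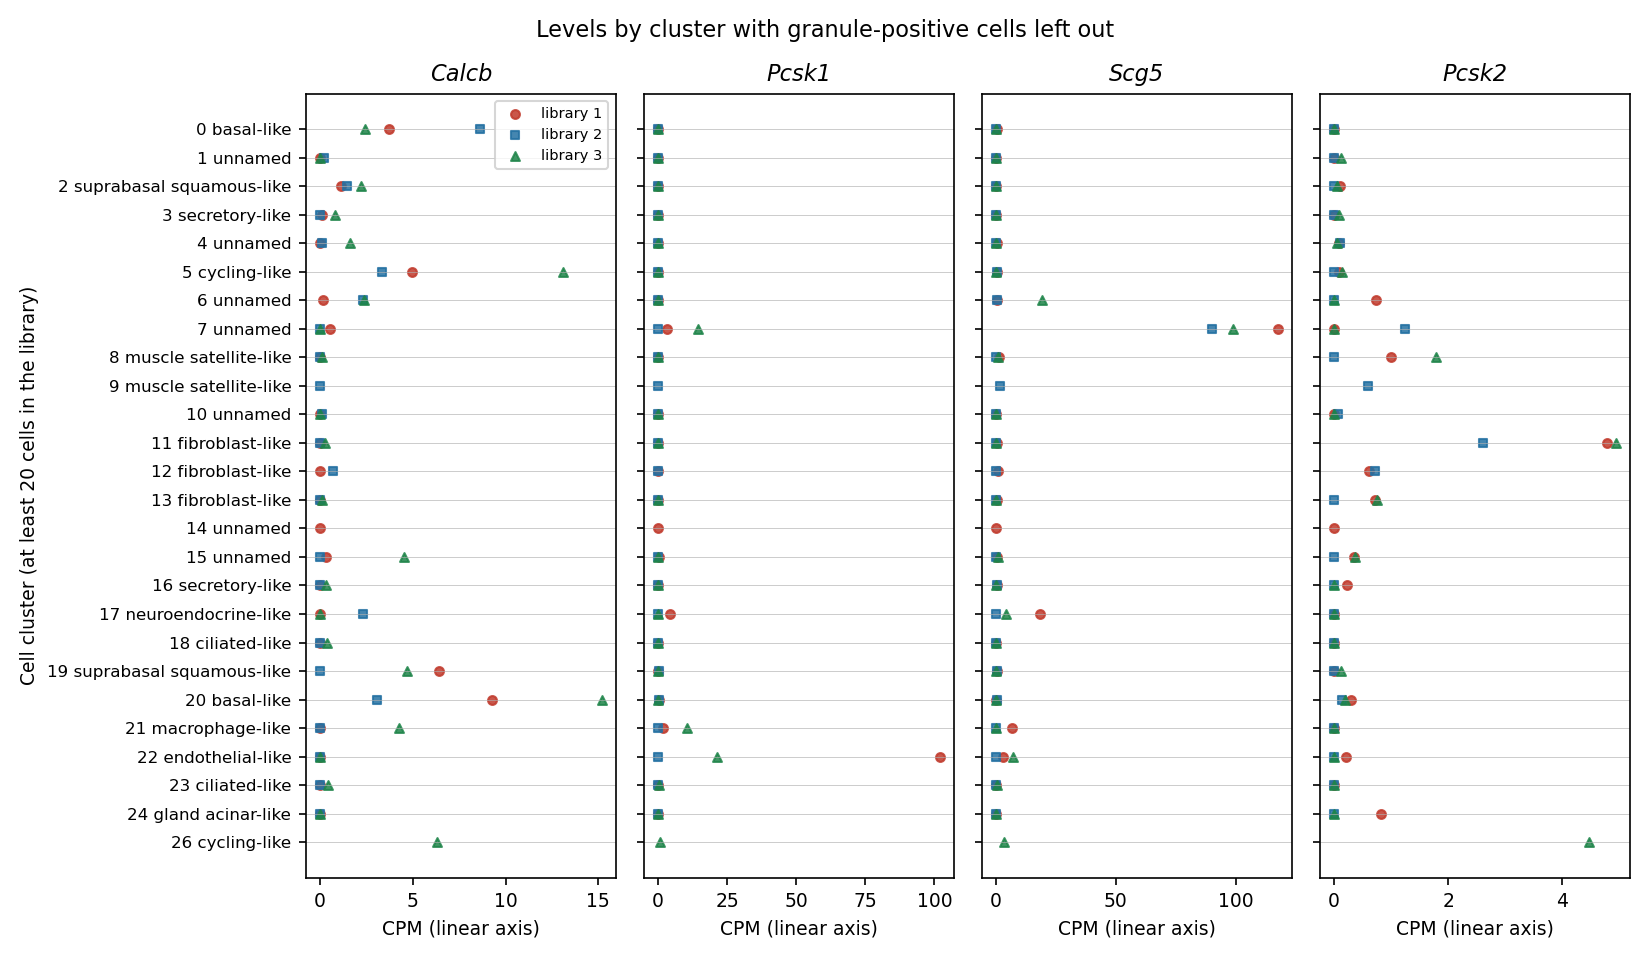
Level in CPM on linear axes of *Calcb*, *Pcsk1*, *Scg5* and *Pcsk2* in the clusters with at least 20 cells in a library. Granule-positive cells are left out, with 1 point per library. *Pcsk1* in endothelial-like cluster 22 runs from 0 to 102 CPM over libraries, while *Scg5* in cluster 7 stays between 90.0 and 117.

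Over 71 sums of cluster and library, the pattern of each gene was compared with that of 14030 genes by Pearson correlation of log2(CPM + 1), as a description in which a single cluster weighs heavily. Nearest to *Chga* were *Scn9a* (0.977), *Resp18* (0.975), *Insm1* (0.975), *Scg2* (0.972) and *Tcerg1l* (0.971). *Scg2* shared *Scn9a* (0.978), *Resp18* and *Insm1* with it and added *Snap25* (0.970). Nearest to *Resp18* were *Insm1* (0.989), *Cryba2* (0.988), *Insrr* (0.987), *Srrm3* and *Snap25*. *Calca* was less tightly matched, with the zinc finger factor *Gfi1* (0.873), *Resp18* (0.867) and the RNA-binding *Elavl4* (0.858) nearest. Between members the values ran from 0.631 for *Scg3* and *Scg5* to 0.975 for *Chga* and *Resp18*, leaving *Calcb* aside.

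The last comparison was the study's own, of cells with and without an *Lrig1* UMI, all of them sorted for the reporter. Granin-positive cells were 0.564%, 0.342% and 0.0658% of *Lrig1*-positive cells and 0.253%, 0.418% and 0.0418% of *Lrig1*-negative cells in libraries 1, 2 and 3, higher in 2 libraries and lower in 1. An *Lrig1* UMI was found in 42 of 73 *Calca*-high and 10 of 17 *Calca*-low cells, and in 56.6% of granule-positive and 56.6% of other *Epcam*-positive cells over all libraries, at unequal depth. The *Lrig1* level was 39.4 to 78.5 CPM over libraries in granule-positive and 78.7 to 90.7 in other *Epcam*-positive cells (means 56.3 ± 20.1 and 86.3 ± 6.65, SD, n = 3), a log2 fold change of -0.98 (edgeR adjusted p = 0.00444). *Lrig1*-positive cells were deeper, with 85259379 UMIs in 5321 cells of library 1 against 71265946 in 7901 *Lrig1*-negative cells.

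No member was called between *Lrig1*-positive and *Lrig1*-negative sums by edgeR's quasi-likelihood test with Benjamini-Hochberg adjustment, where 0.00506% of 19778 genes were called. *Calca* stood at 116, 31.8 and 1.73 CPM in *Lrig1*-positive against 45.7, 62.5 and 1.31 in *Lrig1*-negative sums (log2 fold change 0.46, SE 1.56, adjusted p = 0.946), higher in libraries 1 and 3 and lower in library 2. *Chga* ran at 20.7, 12.01 and 3.30 against 12.3, 19.5 and 2.81 CPM (0.08, SE 0.84, adjusted p = 0.988). *Calcb* was lower in all libraries, at 1.22, 1.12 and 2.41 against 1.33, 1.75 and 6.60 CPM (-0.99, SE 0.68, adjusted p = 0.580). With the library as a block 25.8% of genes were called and again no member, with *Calcb* nearest (-0.76, adjusted p = 0.115). Without library 1 the blocked fit called *Calcb* (-1.11, adjusted p = 0.0294).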

How the data were processed

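The authors deposited UMI counts per gene and cell barcode for 3 libraries (Chromium GEM-X Single Cell 3′ v4), made with Cell Ranger 8.0.1 on mouse build mm39; 0 columns were left unused. Cells were kept at 500 to 8000 genes, 1000 to 40000 UMIs and at most 8% mitochondrial counts, the study's stated limits with the gene and UMI names exchanged. Of 60530 barcodes 49393 passed, and 4851 were removed as doublets by simulated pairs (30 principal components, 30 neighbours, 0.4% per 1000 barcodes). Total counts were 147898790 to 413632222 UMIs per library, which set the precision. Clusters came from scanpy 1.11.5 (2000 variable genes without the members, 15 components, 15 neighbours, Leiden resolution 1).

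Cells are not replicates, so each group's UMIs were added up within a library and these sums tested with edgeR 4.0.16 (TMM, filterByExpr, quasi-likelihood F test, two-sided, Benjamini-Hochberg over all genes, threshold 0.05). Genes that define the groups were left out of the tests. DESeq2 1.42.0, a replicate block, no filter, other thresholds, doublets kept and leaving out each library were the alternatives. Fits were tested on simulated data. The sums being compared share a pool of animals and so pair by source. The correlation of their deviations was 0.0706, -0.00970 and 0.162 for granule-positive, 0.0450, 0.0639 and 0.0581 for *Calca*-high and 0.651, 0.588 and 0.711 for *Lrig1*-positive sums. Wilson intervals (95%) and the limit of 3 for a count of 0 cover counting error only.

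The members, gene lists and rules were chosen with earlier results of these data known. Named beside members were up to 4 genes per list, and the 5 (granule-positive) or 8 (*Calca*-high) largest changes each way among called genes averaging 20 CPM or more over the sums with 1 direction in every library; *Iapp* and the marker genes at 0 were added after their values were seen. Reads of *Calca* do not separate calcitonin from CGRP, since counts are per gene. *Calca* and *Calcb* transcripts share 1.41% and 1.57% of their 31-base words. RefSeq promoters are of GRCm38.p6, and windows were placed on GRCm39. Some genes that these rules name are not reported here.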

Additional observations from a re-analysis of the deposited data

How the results depend on the processing

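The comparison of *Calca*-high with *Calca*-low cells gave no value as first set out, since no library had 10 cells in both types, and its version on thinned cells was not run. *Scg3*, *Scg5*, *Pcsk1*, *Pcsk2* and *Resp18* were called in all 12 settings of the granule-positive comparison. Their log2 fold changes ran from 8.85 to 12.96, and *Calcb* was called in 1 setting (2.34, without library 3). These settings called 22.2% to 40.0% of all genes tested. In the main fit *Pcsk1*, *Pcsk2* and *Resp18* passed the filter on low counts through the granule-positive sums, so their calls are not read as support. The granule-positive comparison called 6442 genes, and 3902 to 5990 with a library left out. The *Calca* fit called 19, and 8 to 53 with a library left out, 218 with no filter on low counts, 4 with doublets kept, 31 at a threshold of 10 UMIs and 3 over all granule-positive cells. The pairing of sums by library mattered most for *Lrig1*: 1 gene was called (2868 had a raw p under 0.05), while adding the replicate block gave 5103, 1039 by DESeq2, 0 with any library left out or with doublets kept, and 3748, 784 and 2916 with the block and without library 1, 2 or 3. With all libraries the block changed no call of a member, and with the block and without library 1 *Calcb* was called (-1.11, edgeR adjusted p = 0.0294). Members of the *Lrig1* comparison changed sign without passing the test: leaving out library 1 against library 2, the log2 fold change ran from -0.92 to 1.34 for *Calca*, -0.52 to 0.68 for *Chga*, -0.99 to 1.25 for *Scg2*, -0.31 to 0.61 for *Scg3*, -0.094 to 0.091 for *Pcsk1*, -0.44 to 0.53 for *Pcsk2* and -0.54 to 1.38 for *Resp18*. *Scg2* was -0.00048 by DESeq2 and -0.055 without library 3, and *Pcsk1* was -0.019 with the block. The causes were not tested. The share of granule-positive cells ranged from 0.269% to 0.339% over thresholds, thinning and filters, against 0.301%. Library 3, with 14 granule-positive cells and a sum of 331226 UMIs, and the 33200 UMIs of the *Calca*-low cells of library 1 limit the precision.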
